A study of Mus musculus with 536 samples.

Results

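Bpgm, Car1, Car2 and Blvrb encode soluble enzymes of the red cell, and their transcripts were followed in mouse blood after total body radiation. They were chosen by name, and each gene is read from whichever of its probe sets gave the highest average across the 536 arrays. The set holds 4 of the 12393 genes measured. Blood was taken by cardiac puncture into PAXgene tubes from C57BL/6 mice 10 to 12 weeks old, depleted of globin transcripts with GLOBINclear, and hybridised to Affymetrix Mouse Genome 430A 2.0 arrays. The values are log2 signals, so that a difference of 1 is a 2-fold ratio of signal.

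All irradiated mice received Cs137 gamma rays at 480 cGy/min, and no mutant allele is named. In the dose-time set, 240 mice of unstated sex and without a further agent formed 48 groups of 5, at 0, 100, 200, 300 and 450 cGy and further at 600, 800 and 1050 cGy, bled at 6, 24, 48, 72, 120 or 168 hr. In the sex and treatment set, 111 female and 115 male mice received GCSF, LPS or neither, with 200, 300, 600 or 0 cGy, and were bled at 6 or 24 hr, in 48 groups of 3 to 5. GCSF is granulocyte colony-stimulating factor, and LPS is bacterial lipopolysaccharide. A small treatment set of 50 mice crossed GCSF, LPS and neither with 150, 600 and 0 cGy at 6 hr. A small 7-day set held 10 mice at 150 cGy and 3 at 0 cGy, bled at 168 hr, and 5 more 0 cGy mice bled earlier. When the agents were given relative to radiation is not stated in the labels. Each mouse is 1 animal with its own label. The number of arrays limits the precision of every value.

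Bisphosphoglycerate mutase, encoded by Bpgm, makes and breaks down 2,3-bisphosphoglycerate, which lowers the oxygen affinity of haemoglobin. Car1 and Car2 encode cytosolic carbonic anhydrases, which interconvert carbon dioxide and bicarbonate and so speed its carriage by the blood. Blvrb encodes biliverdin reductase B, also known as flavin reductase, which uses NADPH to reduce flavins and biliverdin. Mature mammalian red cells have no nucleus, so red cell transcripts in blood come mainly from reticulocytes, the youngest red cells, which lose their RNA as they mature. In whole blood RNA, fewer reticulocytes and less RNA per reticulocyte cannot be told apart.

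The promoters are shown because the group means of the 4 genes correlated in the dose-time set (Pearson's r from 0.77 to 0.95). These promoters give the bases around the start of a gene, and shared control of the genes was not tested. RefSeq's tables hold them for Bpgm and Blvrb, as 250 bases before to 50 after the start, on GRCm38.p6. Bpgm lies on chromosome 6 from 34476356 to 34505136, and its promoter is chr6:34476106-34476405 on the plus strand. Blvrb lies on chromosome 7 from 27447978 to 27465981, and the first of its 2 entries is chr7:27447728-27448027 on the plus strand. Car1 (14766214 to 14808365) and Car2 (14886269 to 14900770) both lie on chromosome 3. Capitals mark matches, on either strand, to the CCAAT box (CCAAT) or the CACC box, written CCNCNCCC.
Bpgm promoter: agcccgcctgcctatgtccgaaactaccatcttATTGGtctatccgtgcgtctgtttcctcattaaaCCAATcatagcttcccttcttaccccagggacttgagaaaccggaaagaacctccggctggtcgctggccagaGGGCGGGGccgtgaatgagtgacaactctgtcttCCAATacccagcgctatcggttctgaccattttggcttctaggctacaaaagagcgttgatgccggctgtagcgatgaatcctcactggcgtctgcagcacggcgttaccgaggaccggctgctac
Blvrb promoter: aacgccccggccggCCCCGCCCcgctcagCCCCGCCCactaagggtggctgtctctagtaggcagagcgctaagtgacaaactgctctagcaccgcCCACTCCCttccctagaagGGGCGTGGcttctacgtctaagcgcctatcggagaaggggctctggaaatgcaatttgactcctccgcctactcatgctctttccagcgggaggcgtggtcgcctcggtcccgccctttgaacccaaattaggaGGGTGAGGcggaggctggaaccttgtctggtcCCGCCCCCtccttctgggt
The Bpgm window held 3 CCAAT boxes and 1 CACC box, and the Blvrb window held 6 CACC boxes and no CCAAT box. Over all 32851 promoters of the table, 49.5% held a CACC box and 37.4% a CCAAT box. The GATA motif, searched as AGATAA or TGATAA and as either of these ending in G instead, stood in 29.8% of promoters, and TATAAA in 13.6%. Neither was found in these 2 windows. GC content was 54.7% for Bpgm and 63.0% for Blvrb.

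In blood the measured signal of Bpgm, Car2 and Blvrb was high and that of Car1 low. Over all arrays the mean log2 signal was 12.61 for Bpgm (Entrez gene 12183), which put it at the 99.5th percentile of genes. It was 11.85 for Car2 (12349), the 98.9th percentile, and 11.06 for Blvrb (233016), the 97.9th. Car1 (12346) averaged 5.0, the 24.9th percentile, so that its values lie near the low end of the scale and those of Bpgm near the top. Signals of different probe sets are not levels per transcript length, and the genes are compared below only by their changes. The 2 further Bpgm probe sets gave the same dose trend calls as the one used.

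Several mice stood apart. At 24 hr, mouse 2 of the 1050 cGy group had 6.72 for Bpgm, 7.21 for Car2, 8.87 for Blvrb and 7.46 for Alas2, the red cell enzyme of haem synthesis, where the other 4 mice of its group had 12.30 to 13.36 for Bpgm and 14.13 to 14.33 for Alas2. Of the 5 mice labelled 800 cGy at 24 hr, 4 had Car2 at 12.88 to 13.49, above every 0 cGy mouse of that time. At 48 hr the 200 cGy mouse 5 and the 300 cGy mouse 4 were high, at 72 hr the 300 cGy mouse 6, and at 168 hr the 1050 cGy mouse 14. Alas2 was between 13.99 and 14.37 in all 30 mice at 0 cGy. Alb, the hepatocyte gene for albumin, was also high in many arrays labelled blood. At 24, 48 and 72 hr this included 0 cGy mice, whose mean over 10 hepatocyte markers ran from 4.95 to 11.45 at 24 hr. At 120 and 168 hr every mouse at 450 cGy and above had an Alb value of 10 or more, and no 0 cGy mouse did.

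At 6 hr only Car1 was called, at 2 of the 7 doses. No member had a called dose trend, the slope of the group means on dose, where 34.7% of genes had one (limma, Benjamini-Hochberg adjusted over 12393 genes, threshold 0.05). Bpgm group means stayed between 13.39 and 13.51 over the 8 doses, and Blvrb means between 11.10 and 11.40. Car2 means ran from 12.63 to 12.95. Car1 rose at 200 cGy by 0.61 ± 0.20 (SE, adjusted p = 0.011), where 23.0% of genes rose, and at 300 cGy by 0.52 ± 0.20 (adjusted p = 0.0291), where 25.4% rose. The Car1 values were 5.18, 5.21, 5.71, 5.96 and 6.04 in the 200 cGy mice and 4.51, 4.57, 5.21, 5.29 and 5.48 in the 0 cGy mice, so the groups overlapped. With quantile normalisation the call at 300 cGy was lost (adjusted p = 0.0973), and the median of all genes was itself higher by 0.11 to 0.15 at the 7 doses of this time. Leaving out 1 mouse number at a time ended the call at 200 cGy in 2 of 5 fits and that at 300 cGy in 3 of 5.

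**Figure D1:**
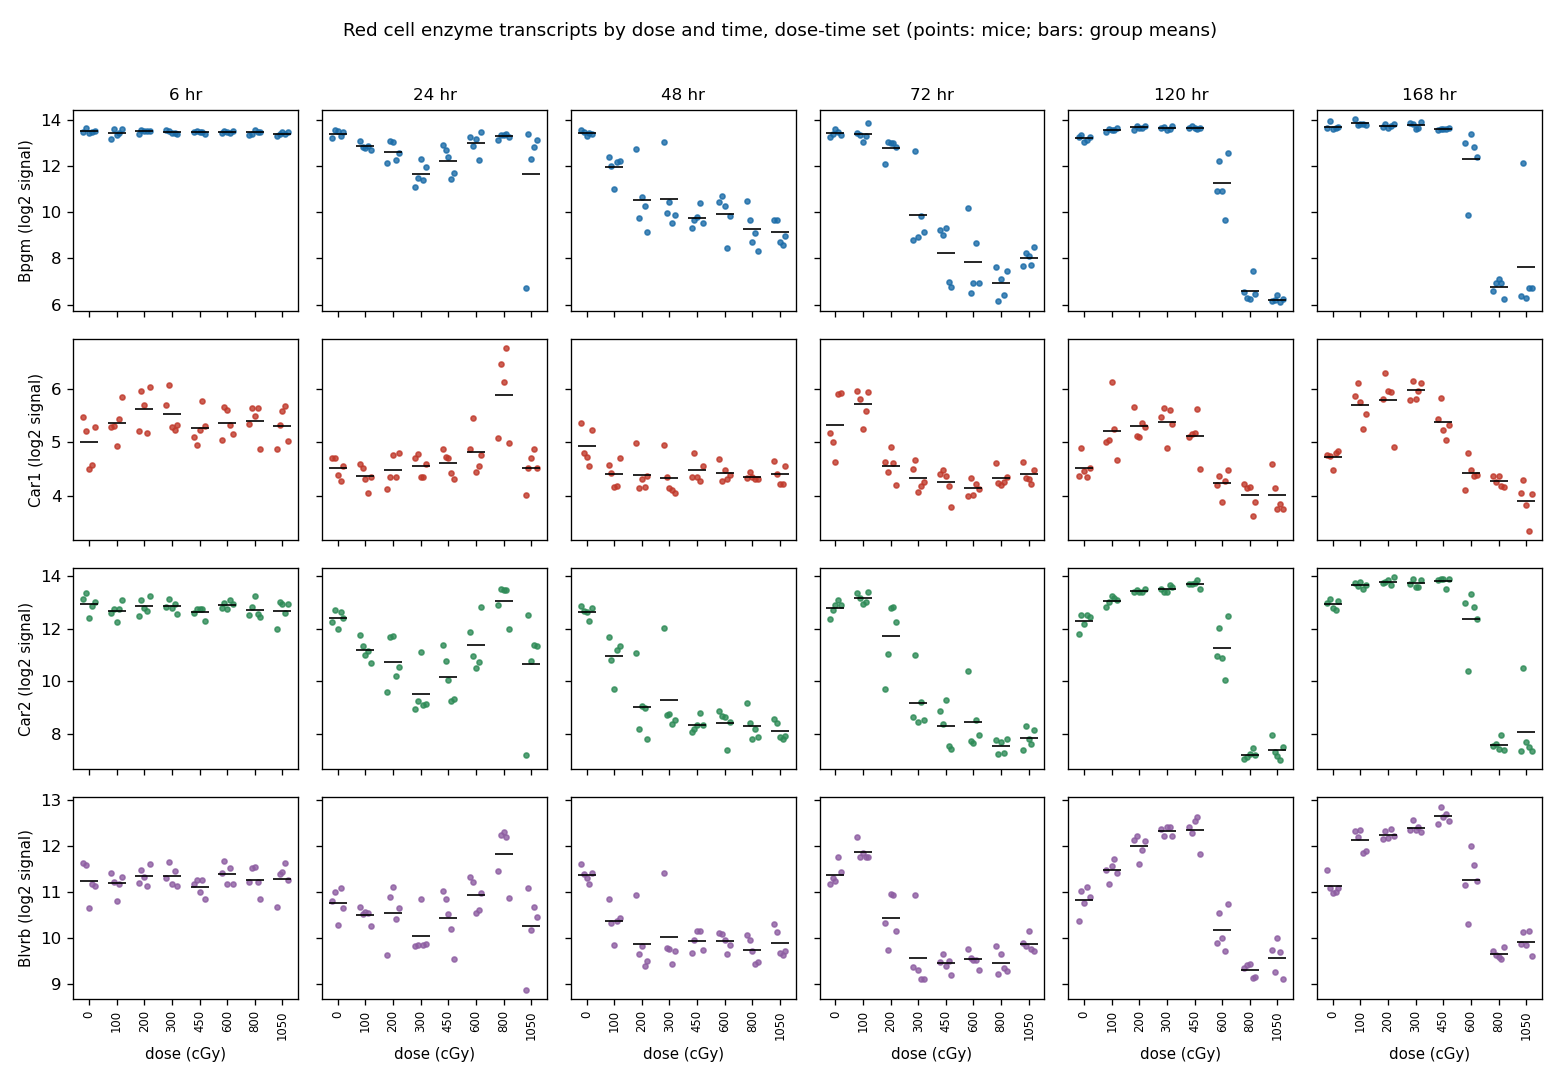
Log2 signal of Bpgm, Car1, Car2 and Blvrb in each of the 240 mice of the dose-time set, by time after exposure and dose in cGy. Each point is 1 mouse and each bar a group mean. At 120 and 168 hr every mouse at 100 to 450 cGy lies above the 0 cGy mice in Car2 and Blvrb, and the 800 and 1050 cGy mice lie below them.

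At 24 hr the Car2 mean was lowest at 300 cGy and not at the highest doses, and Bpgm and Blvrb also fell there. Car2 was 8.96, 9.12, 9.14, 9.26 and 11.11 in the 300 cGy mice, against 12.00, 12.25, 12.42, 12.62 and 12.71 in the 0 cGy mice. The groups did not overlap, and every 300 cGy mouse lay below every 0 cGy mouse for 12.6% of genes. Car2 fell at 200 cGy by 1.65, at 300 cGy by 2.88, at 450 cGy by 2.23 and at 1050 cGy by 1.75 (adjusted p = 0.00394, 4.61e-08, 1.56e-05 and 0.00161), each with an SE of 0.44. Genes that fell made up 8.28%, 17.9%, 18.3% and 11.4% of those tested at these doses. Bpgm was 11.09, 11.38, 11.49, 11.97 and 12.31 in the 300 cGy mice, against 13.19, 13.28, 13.45, 13.50 and 13.56 in the 0 cGy mice. Its groups were also separate, and it fell by 1.75 ± 0.52 (adjusted p = 0.00419). Blvrb fell at 300 cGy by 0.73 ± 0.23 (adjusted p = 0.00915), although its highest 300 cGy mouse (10.85) lay inside the 0 cGy range of 10.28 to 11.08. Its call was lost when only the 24 hr groups were fitted (adjusted p = 0.09), as was that of Car2 at 200 cGy (adjusted p = 0.0816). No member was called at 100 cGy (6.76% of genes were called) or at 600 cGy (27.9%).

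The 24 hr falls of Bpgm and Car2 were seen within each of 5 run codes, and 1 mouse decided those at 1050 cGy. The dose-time sample titles carry these codes, here called runs, and do not say what they stand for. Each code has 1 mouse of every group. Bpgm and Car2 were below the run's 0 cGy mouse in 5 of 5 runs at 100, 200, 300, 450 and 1050 cGy. Blvrb at 300 cGy was lower in 4 of 5. Bpgm also fell at 1050 cGy, by 1.73 (adjusted p = 0.00865). Without mouse 2 of that group the differences were -0.49 for Bpgm (adjusted p = 0.478) and -0.89 for Car2 (adjusted p = 0.122). All 5 mice at 300 cGy and 24 hr had Alb at 10 or more, and their hepatocyte marker mean was 12.30 to 13.71. At 100 cGy that mean was 4.64 to 5.46. Car2 was there 10.68, 10.99, 11.17, 11.35 and 11.75, below every 0 cGy mouse of that time, as held for 3.95% of genes. That difference, -1.21, was not called with the spread shared by all 48 groups (adjusted p = 0.0871), and was called when only the 2 groups were fitted (adjusted p = 6.55e-04, 14.9% of genes called), a fit added after the data were seen.

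The 800 cGy group at 24 hr moved the other way. Car1 rose by 1.37 ± 0.20 (adjusted p = 4.58e-08) and Blvrb by 1.05 ± 0.23 (adjusted p = 2.15e-04), where 9.74% of genes rose. Car1 was 4.99, 5.09, 6.14, 6.47 and 6.77 in the 800 cGy mice, against 4.27, 4.39, 4.55, 4.70 and 4.70 in the 0 cGy mice. These groups did not overlap, and every 800 cGy mouse lay above every 0 cGy mouse for 7.63% of genes. At the neighbouring doses, neither of which was called for Car1, its means were 4.82 ± 0.39 at 600 cGy and 4.53 ± 0.32 at 1050 cGy (SD, n = 5 each). Car1 had the only member trend at 24 hr, 0.067 per 100 cGy (adjusted p = 2.66e-04), where 18.9% of genes rose with dose. Without the mice labelled 800 cGy this slope was 0.016 (adjusted p = 0.439), and that of Bpgm became -0.112 (adjusted p = 0.034). Without mouse 2 of the 1050 cGy group, but with the 800 cGy mice kept, the slopes of Car2 (0.076, adjusted p = 0.0398) and Blvrb (0.059, adjusted p = 0.00337) were also upward. Among the Car2 means of irradiated groups, only that at 800 cGy (13.05) lay above that at 0 cGy (12.40). Without both that mouse and the 800 cGy mice, no member had a called slope.

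By 48 hr all 4 genes were lower at almost every dose. Across the 7 doses, 27 of the 28 differences from 0 cGy were called, all downward. From 100 to 1050 cGy the share of genes that fell was 18.2%, 25.7%, 18.8%, 20.6%, 22.8%, 27.0% and 26.8%. Car2 was 7.81, 7.91, 7.93, 8.41 and 8.58 in the 1050 cGy mice, against 12.31, 12.63, 12.66, 12.78 and 12.86 in the 0 cGy mice, a fall by 4.52 ± 0.44 (adjusted p = 4.71e-18), or 22.9-fold. Bpgm was 8.59, 8.71, 8.99, 9.67 and 9.68 in the 1050 cGy mice, against 13.28 to 13.56 in the 0 cGy mice, and fell by 4.29 ± 0.52 (adjusted p = 2.74e-13), or 19.6-fold. Both pairs of groups were far apart, and every 1050 cGy mouse lay below every 0 cGy mouse for 18.1% of genes. Already at 100 cGy, Bpgm fell by 1.47 (adjusted p = 0.0187), Car2 by 1.70 (adjusted p = 0.00158) and Blvrb by 1.01 (adjusted p = 3.86e-04).

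Bpgm and Car2 went down further with dose, while Blvrb and Car1 were close to their lowest at 200 cGy. The slope per 100 cGy was -0.347 for Bpgm (adjusted p = 1.72e-15), -0.349 for Car2 (1.34e-19) and -0.096 for Blvrb (4.57e-07), where 23.3% of genes fell with dose. Blvrb means were 9.85, 10.02, 9.92, 9.93, 9.72 and 9.88 from 200 to 1050 cGy, against 11.37 at 0 cGy. Car1 had no trend at 48 hr (-0.025, adjusted p = 0.168), and its differences lay between -0.46 and -0.61, called at every dose but 450 cGy. These Car1 calls depended on the normalisation: with quantile normalisation within the set none of the 6 remained (adjusted p from 0.0992 to 0.309), and with each array centred on its median those at 100, 600 and 1050 cGy were lost (0.0549, 0.109 and 0.08). Leaving out 1 mouse number at a time ended each Car1 call in at least 1 of 5 fits, and that at 100 cGy in 5 of 5; the Bpgm call at 100 cGy was lost in 3 of 5 (adjusted p up to 0.118). All 4 genes were lower in 5 of 5 runs at every dose, except Car1 at 450 cGy (4 of 5).

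At 48 hr the hepatocyte means of the groups overlapped, while macrophage markers rose and lymphocyte markers fell. The hepatocyte mean ran from 7.41 to 12.92 at 1050 cGy and from 5.36 to 11.12 at 0 cGy, and 0 of its 10 genes had a dose trend. The mean of 6 tissue macrophage markers was 10.21 to 10.82 at 1050 cGy and 6.96 to 9.34 at 0 cGy, and 6 of 6 rose with dose. B cell (4 of 4) and T cell (5 of 5) markers fell with dose at 48 hr, where 23.3% of genes fell. Platelet (5 of 6) and neutrophil (3 of 5) markers rose, where 24.0% of genes rose. S100a9, also a neutrophil marker, fell (-0.136 per 100 cGy, adjusted p = 0.00543). The part of these markers in the result was not tested. Among mice with Alb below 10 the trends remained called, at -0.288 for Bpgm, -0.336 for Car2 and -0.076 for Blvrb (adjusted p = 0.0293), but at 100 cGy Bpgm (-1.33, adjusted p = 0.154) and Car2 (-1.51, adjusted p = 0.0501) lost their calls.

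At 72 hr the doses split: no fall was called at 100 cGy, while all 4 genes fell at 300 cGy and above. At 100 cGy no member was called (13.8% of genes were), and the differences were -0.02 for Bpgm (95% interval -1.04 to 0.99), 0.38 for Car1 (-0.02 to 0.78), 0.38 for Car2 (-0.50 to 1.25) and 0.49 for Blvrb (0.03 to 0.95, adjusted p = 0.151). At 200 cGy Car1 fell by 0.77 (adjusted p = 0.00133), Car2 by 1.06 (0.0461) and Blvrb by 0.95 (5.07e-04), where 21.3% of genes fell, and Bpgm differed by -0.62 (adjusted p = 0.337). The Car2 call at 200 cGy was lost with arrays centred on their median (0.0639), with only the 72 hr groups fitted (0.0786) and among mice with Alb below 10 (-0.09, adjusted p = 0.898), and in 4 of 5 fits that left out 1 mouse number (up to 0.167). At 300, 450, 600, 800 and 1050 cGy all 4 genes fell, in 5 of 5 runs each, where 23.9%, 25.0%, 31.3%, 29.2% and 26.6% of genes fell.

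Bpgm had the widest range. It was 6.15, 6.43, 7.12, 7.44 and 7.65 in the 800 cGy mice, against 13.27, 13.34, 13.39, 13.47 and 13.59 in the 0 cGy mice, and fell by 6.46 ± 0.52 (adjusted p = 1.95e-24). Car2 was 7.26, 7.28, 7.71, 7.76 and 7.81 in the 800 cGy mice, against 12.37, 12.69, 12.90, 12.90 and 13.10 in the 0 cGy mice, and fell by 5.23 ± 0.44 (adjusted p = 1.79e-22). Neither gene overlapped between these groups, where every irradiated mouse lay below every 0 cGy mouse for 13.7% of genes. At 300 cGy the mice spread widely, with Bpgm at 8.79, 8.92, 9.16, 9.83 and 12.64, and mouse 6 as the highest. Blvrb fell by 1.81 at 300 cGy and by 1.51 at 1050 cGy, so its change did not deepen with dose as that of Bpgm did. Car1 fell by 0.93 to 1.19 at the 5 higher doses. The slopes per 100 cGy were -0.652 for Bpgm (3.95e-38), -0.104 for Car1 (4.56e-10), -0.553 for Car2 (1.70e-37) and -0.179 for Blvrb (3.61e-19), where 27.1% of genes fell with dose.

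**Figure D2:**
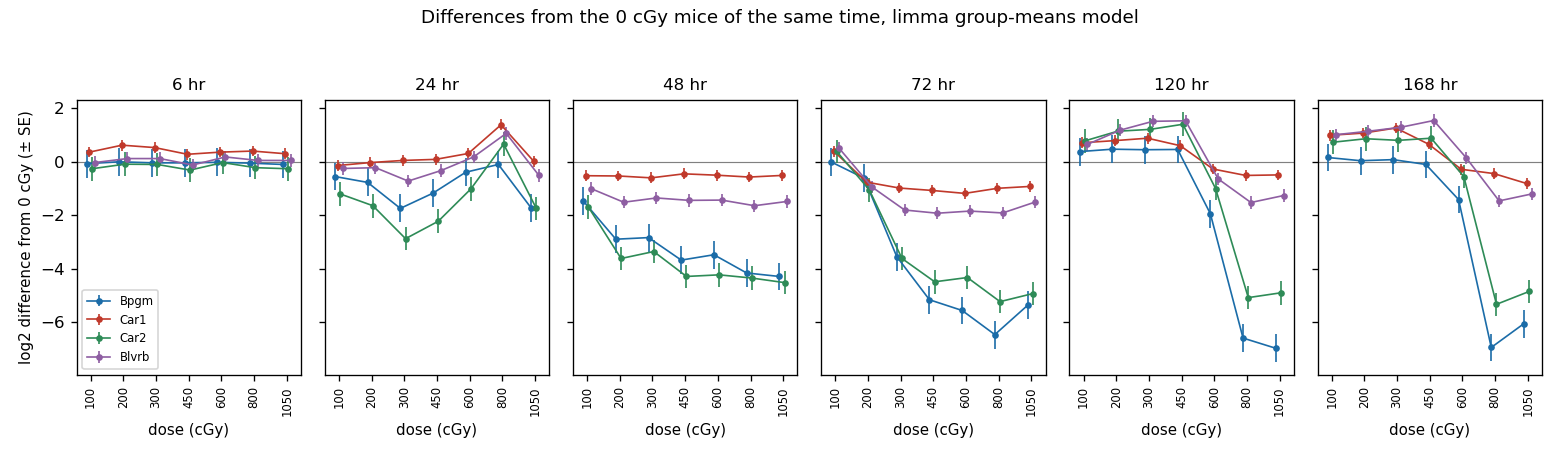
Difference of each dose from 0 cGy (log2 signal, mean and SE of the limma fit) for Bpgm, Car1, Car2 and Blvrb by time after exposure, with 5 mice in each group. Differences at 48 hr are below 0 at every dose; at 120 hr those at 100 to 450 cGy are above 0, and those at 600 to 1050 cGy below it.

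At 120 hr the direction depended on dose. Car1, Car2 and Blvrb were higher than in 0 cGy mice after 100 to 450 cGy, and Bpgm, Car2 and Blvrb were far lower after 800 and 1050 cGy. Blvrb was 11.83, 12.28, 12.42, 12.55 and 12.63 in the 450 cGy mice, against 10.37, 10.75, 10.88, 11.02 and 11.10 in the 0 cGy mice, and rose by 1.52 ± 0.23 (adjusted p = 7.91e-09), or 2.87-fold. Car2 was 13.51, 13.68, 13.70, 13.73 and 13.83 in the 450 cGy mice, against 11.81, 12.18, 12.46, 12.51 and 12.53 in the 0 cGy mice, and rose by 1.39 ± 0.44 (adjusted p = 0.00692). Neither gene overlapped between the groups. At 100, 200, 300 and 450 cGy, Car1 rose by 0.70, 0.78, 0.87 and 0.59 and Blvrb by 0.64, 1.17, 1.5 and 1.52. Car2 rose at 200 and 300 cGy by 1.13 and 1.20, and differed by 0.77 at 100 cGy (adjusted p = 0.113). In these 4 comparisons 39.5%, 37.5%, 20.2% and 18.6% of genes rose.

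Bpgm moved little over these doses. It was 13.60, 13.62, 13.63, 13.64 and 13.74 in the 450 cGy mice, against 13.04, 13.13, 13.24, 13.25 and 13.33 in the 0 cGy mice. The groups did not overlap, yet the difference of 0.45 ± 0.52 was not called (adjusted p = 0.511), since the SE comes from all 48 groups, among them the scattered ones at 300 cGy and 72 hr. With only the 2 groups in the fit, Bpgm was called at 100, 200, 300 and 450 cGy (adjusted p = 0.00674, 9.42e-04, 0.00115 and 7.04e-04), where 76.9%, 74.9%, 58.8% and 48.7% of genes were called in either direction. Every mouse of the irradiated group lay above every 0 cGy mouse for 3, 4, 3 and 3 members at 100, 200, 300 and 450 cGy, as it did for 30.8%, 26.7%, 16.4% and 16.6% of genes. Within runs all 4 genes were higher in 5 of 5 runs at these doses, except Car1 at 450 cGy (4 of 5). Car1 lost its calls at 100, 200 and 450 cGy with quantile normalisation (adjusted p = 0.187, 0.0652 and 0.0919), and Car2 those at 200 and 300 cGy (0.0571 and 0.0649). Leaving out 1 mouse number ended the Car2 call at 300 cGy in 3 of 5 fits and at 200 cGy in 1, and the Car1 call at 450 cGy in 2 and at 100 cGy in 1. The median of all genes was itself higher by 0.16, 0.17 and 0.12 at 100, 200 and 300 cGy.

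The 600 cGy group lay between. Bpgm was 9.66, 10.90, 10.92, 12.23 and 12.54 in the 600 cGy mice, below every 0 cGy mouse, as held for 18.9% of genes. It fell by 1.95 ± 0.52 (adjusted p = 7.22e-04), where 22.6% of genes fell. Blvrb fell by 0.65 (adjusted p = 0.0142), a call lost in 1 of 5 fits that left out 1 mouse number (adjusted p = 0.177). Car2 differed by -1.01 (adjusted p = 0.0507, and 5.81e-04 with only the 120 hr groups fitted). At 1050 cGy, Bpgm was 6.13, 6.17, 6.19, 6.23 and 6.41, a fall by 6.97 ± 0.52 (adjusted p = 1.83e-27), or 126-fold, where 25.3% of genes fell. At 800 cGy it fell by 6.59, Car2 by 5.08, Blvrb by 1.53 and Car1 by 0.52, where 28.5% fell, and the Car1 call was lost with quantile normalisation (adjusted p = 0.0505). At 1050 cGy Car1 was 3.75 to 4.59, overlapping the 0 cGy range of 4.36 to 4.90, and leaving out 1 mouse number ended its call in 4 of 5 fits, and in 3 of 5 at 800 cGy. The slopes per 100 cGy over all doses were -0.795 for Bpgm (4.35e-49), -0.118 for Car1 (1.27e-12), -0.622 for Car2 (5.55e-44) and -0.232 for Blvrb (2.48e-28), where 47.0% of genes fell with dose.

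At 168 hr Car1 and Blvrb were again higher after 100 to 450 cGy, and Bpgm, Car2 and Blvrb far lower after 800 and 1050 cGy. Car1 was 5.80, 5.82, 5.97, 6.12 and 6.16 in the 300 cGy mice, against 4.48, 4.74, 4.76, 4.80 and 4.84 in the 0 cGy mice, and rose by 1.25 ± 0.20 (adjusted p = 4.16e-08). Blvrb was 12.49, 12.54, 12.64, 12.70 and 12.86 in the 450 cGy mice, against 10.97 to 11.47 in the 0 cGy mice, and rose by 1.53 ± 0.23 (adjusted p = 5.57e-09). Both were without overlap. At 100, 200, 300 and 450 cGy, Car1 rose by 0.98, 1.06, 1.25 and 0.65 and Blvrb by 1.0, 1.13, 1.28 and 1.53, where 5.00%, 29.8%, 40.7% and 37.9% of genes rose. The Blvrb differences were thus larger at each higher dose and the Car1 difference was smaller at 450 than at 300 cGy, steps that were not themselves tested. The Car1 call at 450 cGy was lost with quantile normalisation (0.37, adjusted p = 0.117), and the median of all genes was itself higher by 0.18 at 300 and 0.16 at 450 cGy.

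Car2 at 168 hr was 13.50, 13.85, 13.87, 13.87 and 13.90 in the 450 cGy mice, against 12.70, 12.79, 12.99, 13.05 and 13.14 in the 0 cGy mice. The groups were separate at each of 100, 200, 300 and 450 cGy, as they were upward for Car1 and Blvrb, and the upward shares of all genes were 7.29%, 9.94%, 31.3% and 30.9%. With the shared spread the Car2 differences of 0.72, 0.85, 0.79 and 0.87 were not called (adjusted p = 0.233, 0.0874, 0.101 and 0.0734). With only the 2 groups fitted they were (4.60e-04, 2.32e-04, 7.03e-05 and 1.59e-05), where 37.9%, 56.2%, 76.7% and 75.5% of genes were called. Bpgm means were 13.85, 13.73, 13.77 and 13.59 from 100 to 450 cGy, against 13.70 at 0 cGy, and none was called. Car1, Car2 and Blvrb were higher in 5 of 5 runs at each of the 4 doses.

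At the top doses Bpgm and Car2 were low. Bpgm was 6.23, 6.60, 6.92, 6.94 and 7.10 in the 800 cGy mice, against 13.59, 13.62, 13.66, 13.68 and 13.94 in the 0 cGy mice, a fall by 6.94 (adjusted p = 2.72e-27), or 123-fold. Car2 fell there by 5.33 (3.29e-23) and Blvrb by 1.47 (1.68e-08), where 27.4% of genes fell, and Car1 differed by -0.45 (adjusted p = 0.0514). At 1050 cGy all 4 fell, where 33.3% of genes fell. At that dose mouse 14 had Bpgm at 12.12 and Car2 at 10.51, where the other 4 had at most 6.74 and 7.70. At 600 cGy Bpgm fell by 1.42 ± 0.52 (adjusted p = 0.0186), where 21.7% fell, with mouse 15 at 9.87 and the other 4 at 12.37 to 13.37. That call was lost when only the 168 hr groups were fitted (adjusted p = 0.0578). The slopes per 100 cGy were -0.714 for Bpgm (1.27e-43), -0.160 for Car1 (3.40e-20), -0.606 for Car2 (6.95e-43) and -0.220 for Blvrb (2.28e-26), where 46.6% of genes fell with dose.

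Markers of liver and macrophages were high, and those of lymphocytes low, in many of the same late groups. At 120 hr 10 of 10 hepatocyte markers rose with dose, where 35.4% of genes rose. The hepatocyte mean was then 13.07 to 14.12 in the 1050 cGy mice and at least 7.07 in the 450 cGy mice. It was 5.12 to 5.62 in the 300 cGy mice and 4.75 to 7.13 in the 0 cGy mice. At 168 hr it was 12.87 to 13.88 in the 800 cGy mice, 9.32 to 11.64 in the 450 cGy mice and 4.88 to 5.86 in the 0 cGy mice. At 300 cGy and 120 hr, where Blvrb and Car1 rose, the hepatocyte mean was 5.62 or below in the irradiated mice. In the 0 cGy mice it reached 7.13. The falls at 600 cGy and above were measured only in irradiated mice with Alb of 10 or more. The part of these markers in the result, and of those that follow, was not tested. Macrophage markers rose with dose at 120 and 168 hr in 6 of 6 cases, where 35.4% and 35.5% of genes rose. Their mean at 168 hr was 11.43 to 11.68 in the 800 cGy mice and 7.72 to 9.47 in the 0 cGy mice. At 300 cGy and 168 hr, though, 3 of the 6 markers were lower and none higher, where 32.0% of genes fell. Among mice with Alb below 10, which leaves only 0 to 300 cGy at these times, the slopes turned upward: at 120 hr they were 0.139 for Bpgm (adjusted p = 0.35), 0.274 for Car1 (6.47e-04), 0.397 for Car2 (0.0017) and 0.498 for Blvrb (3.80e-10).

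At most doses where Car1 and Blvrb were higher late, lymphocyte markers were lower. At 300 cGy and 168 hr all 4 measured B cell and all 5 T cell markers fell, where 32.0% of genes fell, with medians of -2.82 and -2.07, against 0.18 for all genes. The B cell mean was 6.98 to 8.77 in the 300 cGy mice, against 10.62 to 11.24 in the 0 cGy mice, and the T cell mean 7.06 to 8.22, against 9.44 to 9.63. At 100 cGy and 168 hr, where Car1 and Blvrb also rose, 1 of 4 B cell and 0 of 5 T cell markers fell. At 120 hr the 4 B cell markers fell at each of 100 to 450 cGy, and 3 or 4 of the 5 T cell markers did. The shares of all genes called lower in these 120 hr comparisons, and at 100 cGy and 168 hr, are not given here. By another measure, every irradiated mouse lay below every 0 cGy mouse for 28.4%, 25.9%, 22.8% and 20.9% of all genes at 120 hr. At 100 cGy and 168 hr that measure gave 14.5%. No neutrophil marker was called at 100, 200 or 300 cGy and 120 hr, where 39.5%, 37.5% and 20.2% of genes rose. At 800 cGy and 168 hr the neutrophil mean was 6.29 to 7.12, against 9.19 to 10.04 in the 0 cGy mice. Platelet markers rose at 450 cGy and 120 hr, in 6 of 6, where 18.6% of genes rose. Their mean was 13.02 to 13.31, against 11.39 to 11.80 in the 0 cGy mice.

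**Figure D3:**
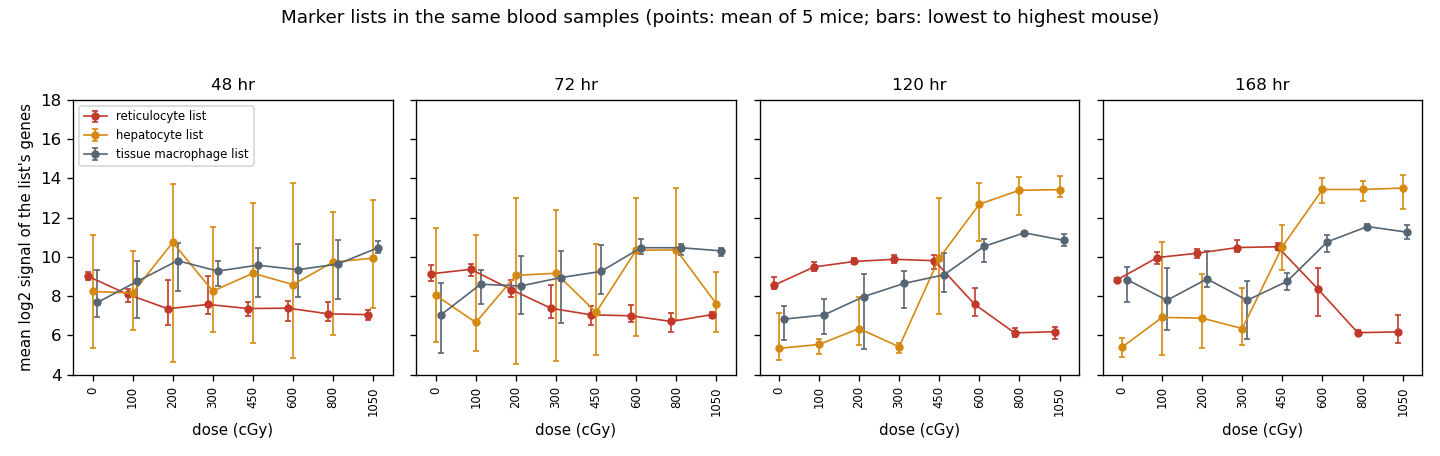
Mean log2 signal of the reticulocyte, hepatocyte and tissue macrophage marker lists in the dose-time set, by time and dose in cGy, as group means with the lowest and highest mouse. At 120 and 168 hr the reticulocyte mean is above the 0 cGy group from 100 to 450 cGy and below it at 800 and 1050 cGy, where the hepatocyte mean exceeds 12.

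The dose slope of each member differed between times. The moderated F test over the 6 times gave 80.29 for Bpgm, 32.25 for Car1, 79.49 for Car2 and 44.48 for Blvrb (adjusted p = 1.50e-43, 5.64e-23, 2.69e-43 and 2.88e-29), and 92.3% of all genes passed that test. In 0 cGy mice alone, Car1 differed between times (F = 4.76, adjusted p = 0.00195), as 50.3% of genes did, with means of 5.01, 4.52, 4.93, 5.33, 4.52 and 4.72 from 6 to 168 hr. The Car1 call was lost with quantile normalisation (adjusted p = 0.0747). Blvrb (0.0526), Car2 (0.64) and Bpgm (0.973) were not called. The comparisons at one time share their 0 cGy mice.

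Most measured reticulocyte genes fell with dose from 48 hr on. Of 24 listed, 19 were measured, and 14 fell with dose at 48 hr while 2 rose, where 23.3% of all genes fell. The count that fell was 17 at both 72 and 120 hr, where 2 rose again, and 18 at 168 hr, where 27.1%, 47.0% and 46.6% of all genes fell at these times. The median slope at 120 hr was -0.32, against -0.02 for all genes. At 72 hr the smallest p-values were those of Slc25a37 (-0.633), the mitochondrial iron importer mitoferrin, Fech (-0.576), the last enzyme of haem synthesis, Slc4a1 (-0.563), the band 3 anion exchanger that trades bicarbonate for chloride, and Epb42 (-0.408), a membrane skeleton protein. The 2 genes that rose encode the transcription factors Gata1 and Nfe2, also expressed in megakaryocytes and platelets. At 300 cGy and 168 hr, 15 of the 19 rose and none fell, where 40.7% of all genes rose. The list's mean at that dose was 10.27 to 10.84, against 8.76 to 8.95 in the 0 cGy mice.

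Other enzymes of red cells did not move as a block. Of 26 listed, 22 were measured. The dose trend was upward for 14 and downward for 5 at 48 hr. By 168 hr it was upward for 11 and downward for 8, after 15 against 5 at 72 hr and 12 against 7 at 120 hr. Of all genes, 24.0%, 26.3%, 35.4% and 35.5% had an upward trend at 48, 72, 120 and 168 hr. At 72 hr the smallest p-values were those of Hagh (-0.559), a glyoxalase, Prdx2 (-0.315), the red cell peroxiredoxin, Gpx1 (-0.134), glutathione peroxidase, and Pfkl (0.327), the liver type of phosphofructokinase. Of these, 3 fell and Pfkl rose. At 168 hr they were those of Nt5c3 (-0.485), a pyrimidine nucleotidase, Cyb5r3 (0.368), methaemoglobin reductase, Sod1 (0.249), superoxide dismutase, and Tpi1 (0.242), triose phosphate isomerase. Most of these enzymes also serve other blood cells. The median slope of the list was 0.09 at 72 hr, against 0.00 for all genes.

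Few of the other carbonic anhydrases had a dose trend at 48 and 72 hr. All 14 listed were measured, and 1 rose and none fell with dose at 48 hr, where 24.0% of genes rose and 23.3% fell. At 72 hr Car6, the secreted form, rose (0.507 per 100 cGy) and Car15 fell (-0.034), where 26.3% of genes rose and 27.1% fell. At 120 hr 3 rose and 8 fell, where 35.4% of genes rose and 47.0% fell. They were led by Car6 (0.548), Car15 (-0.122), Car3 (0.815), an isoform abundant in muscle, liver and fat, and Car4 (-0.110), the membrane-bound form. Car3 and Car6 thus rose where Car2 fell by 0.622 per 100 cGy. At 300 cGy and 168 hr 10 of 14 rose and none fell, where 40.7% of genes rose. Their median was 0.56, against 0.18 for all genes.

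Over the 48 group means, Bpgm and Car2 ran closest together among the members (Pearson's r = 0.95), then Car2 and Blvrb (0.94), Car1 and Blvrb (0.89), Bpgm and Blvrb (0.85), Car1 and Car2 (0.83), and Bpgm and Car1 (0.77). The group means share their arrays, so these are descriptions. The genes outside the set most like Bpgm were Cdr2, Fech and Ube2l6 (0.98 each). Those most like Car2 were Trim10, Slc4a1 and Prxl2a (0.99 each), and those most like Blvrb were Rhd and Kel (0.98 each), which encode blood group antigens, and Tmod1 (0.97), which caps actin in the membrane skeleton. Those most like Car1 were Tnk1 (0.95), Slc22a4 and Rab3il1 (0.94 each).

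In the small 7-day set all 4 genes rose at 150 cGy, where 33.8% of genes rose. Car2 ran from 12.82 through a median of 13.42 to 13.71 in the 10 mice at 150 cGy, against 12.13, 12.36 and 12.55 in the 3 mice at 0 cGy, and rose by 1.0 ± 0.17 (adjusted p = 1.36e-04), or 2.00-fold. Bpgm ran from 13.54 through 13.81 to 13.89 at 150 cGy, against 13.09, 13.35 and 13.39 at 0 cGy, and rose by 0.48 ± 0.13 (adjusted p = 0.00461). Both were without overlap, and the share of all genes without overlap was not counted in this set. Car1 ran from 4.83 through 5.74 to 6.31 at 150 cGy, against 4.37, 4.53 and 4.80 at 0 cGy. It rose by 1.13 ± 0.27 (adjusted p = 0.00153). Blvrb averaged 12.23 ± 0.43 at 150 cGy (SD, n = 10) and 11.23 ± 0.42 at 0 cGy (SD, n = 3), and rose by 1.0 ± 0.24 (adjusted p = 0.00179), with the groups overlapping. Of the reticulocyte genes 18 of 19 rose, led by Klf1 (1.63), the erythroid transcription factor, Add2 (1.26), Rhd (2.10) and Ermap (1.35). Of the other enzymes 10 rose and 7 fell, with Pklr (1.86), the red cell pyruvate kinase, Glo1 (1.41), Hmox1 (0.86) and Prdx2 (0.83) up. In the same mice 4 of 4 B cell and 5 of 5 T cell markers fell, where 33.3% of genes fell, with medians of -2.28 and -1.71, against 0.09 for all genes. Of the 10 hepatocyte markers 6 rose, and no neutrophil, platelet or macrophage marker was called. The part of these markers in the result was not tested.

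**Figure D4:**
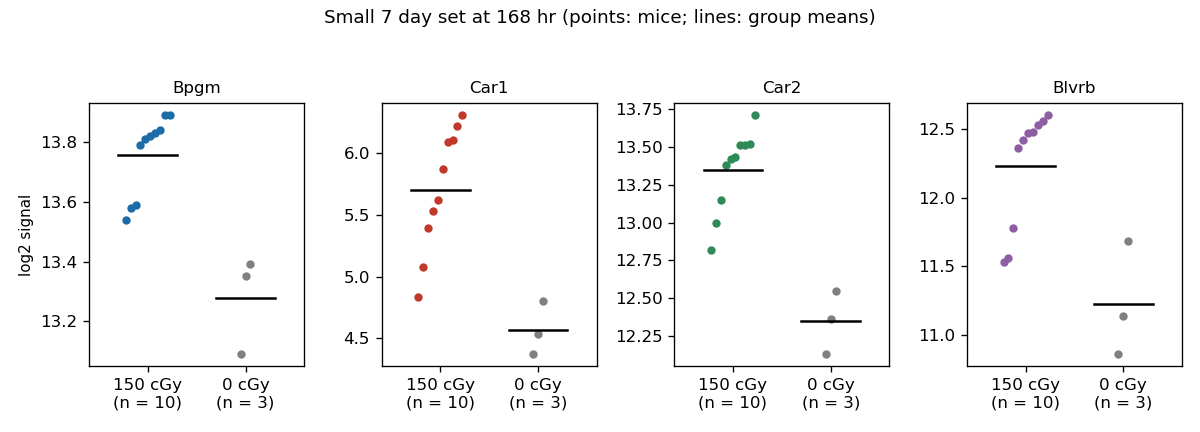
Log2 signal of Bpgm, Car1, Car2 and Blvrb at 168 hr in the small 7-day set, with the 10 mice at 150 cGy left of the 3 mice at 0 cGy; points are mice and lines are group means. All 10 mice at 150 cGy lie above the 3 at 0 cGy for Bpgm, Car1 and Car2. The share of all genes for which this holds was not counted.

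In the sex and treatment set, without an agent, Car2 and Bpgm fell with dose at 24 hr, over 0 to 600 cGy; in the dose-time set, over 0 to 1050 cGy, neither had a called trend at that time. Car2 at 300 cGy averaged 10.65 ± 1.49 in females and 11.53 ± 0.79 in males, against 12.37 ± 0.39 in females and 13.05 ± 0.29 in males at 0 cGy (SD, n = 5 each). Its trend was -0.192 per 100 cGy (adjusted p = 1.41e-05), and that of Bpgm -0.074 (adjusted p = 0.00282), where 22.9% of genes fell. Blvrb had no called trend, but it fell 1.54-fold at 200 cGy and 1.77-fold at 300 cGy. The call at 200 cGy was lost in 1 of 5 fits that left out 1 mouse number. The share of all genes called at these doses is not given here. Car2 averaged 10.40 ± 0.35 in females and 11.72 ± 1.25 in males at 200 cGy (SD, n = 4 each). At 600 cGy Car2 averaged 10.51 ± 0.39 in females and 12.18 ± 1.13 in males. The Car2 means were thus not lower at each higher dose, and these steps were not tested. In the same 24 hr comparison 6 of 6 tissue macrophage, 6 of 6 platelet and 5 of 5 neutrophil markers rose with dose, where 18.3% of genes rose, while 4 of 4 B cell and 5 of 5 T cell markers fell and 0 of 10 hepatocyte markers were called. The part of these markers in the result was not tested. At 6 hr no member had a trend without an agent, where 19.9% of genes did. By single doses Car2 alone was called there, with a 1.64-fold fall at 200 cGy and a 1.63-fold fall at 300 cGy. Leaving out 1 mouse number ended these calls in 4 of 5 and 2 of 5 fits. The share of all genes called at these doses is not given here.

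Under GCSF all 4 genes fell with dose at 24 hr, where 17.4% of genes fell: Bpgm by 0.119 per 100 cGy (adjusted p = 2.23e-06), Car1 by 0.093 (0.00138), Car2 by 0.271 (4.98e-09) and Blvrb by 0.125 (2.98e-04). Car2 under GCSF ran at 600 cGy from 9.96 to 12.46 in females and from 10.53 to 12.42 in males. At 0 cGy it ran from 12.80 to 13.09 in females and from 13.27 to 13.68 in males. Within a sex the groups did not overlap, and the share of all genes without overlap was not counted in this set. Car1 under GCSF at 0 cGy and 24 hr averaged 5.31 ± 0.09 in females and 5.54 ± 0.34 in males, against 4.78 ± 0.21 and 4.81 ± 0.45 without an agent (SD, n = 5 each). It rose by 0.63 ± 0.15 (adjusted p = 0.023), where 0.331% of genes rose, a call lost with quantile normalisation (0.0797) and with only the 24 hr groups fitted (0.0746). Under LPS at 24 hr Car2 alone fell with dose (-0.115, adjusted p = 0.0399), where 9.80% of genes fell, a call lost with arrays centred on their median (0.0548). At 6 hr Car2 fell under GCSF (-0.093, adjusted p = 0.0437, 23.9% of genes), and Car2 (-0.139, 0.00723) and Blvrb (-0.076, 0.0497) fell under LPS, where 15.8% fell. Leaving out 1 mouse number at a time ended the GCSF call of Car2 at 6 hr in 4 of 5 fits (adjusted p up to 0.143), as did arrays centred on their median (0.0664). It ended the 6 hr LPS calls of Blvrb in 4 of 5 (up to 0.233) and Car2 in 1 of 5 (0.0558), the 24 hr LPS call of Car2 in 4 of 5 (up to 0.186) and that of Car1 under GCSF without radiation in 4 of 5 (up to 0.24). The Blvrb call was also lost with quantile normalisation (0.246).

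No member's dose slope was called different with either agent, by the test of the difference itself. The slope under GCSF minus that without an agent was -0.10 for Car1 at 24 hr (adjusted p = 0.366), where 0.00807% of genes were called, and -0.079 for Car2. Under LPS at 24 hr it was 0.063 for Bpgm (adjusted p = 0.178) and 0.077 for Car2 (0.445), where 16.5% were called. At 6 hr no member was called either, where 0.0161% of genes were called for GCSF and 6.45% for LPS. Without radiation no member was called for GCSF at 6 hr (0.00% of genes), LPS at 6 hr (35.2%) or LPS at 24 hr (21.9%). Between females and males without an agent no member was called at 0 cGy (27.8% of genes at 6 hr, 0.0726% at 24 hr), nor was a member's slope (10.3% and 0.00%). The female minus male difference at 0 cGy and 24 hr was -0.68 ± 0.34 for Car2 and -0.34 ± 0.19 for Bpgm.

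**Figure D5:**
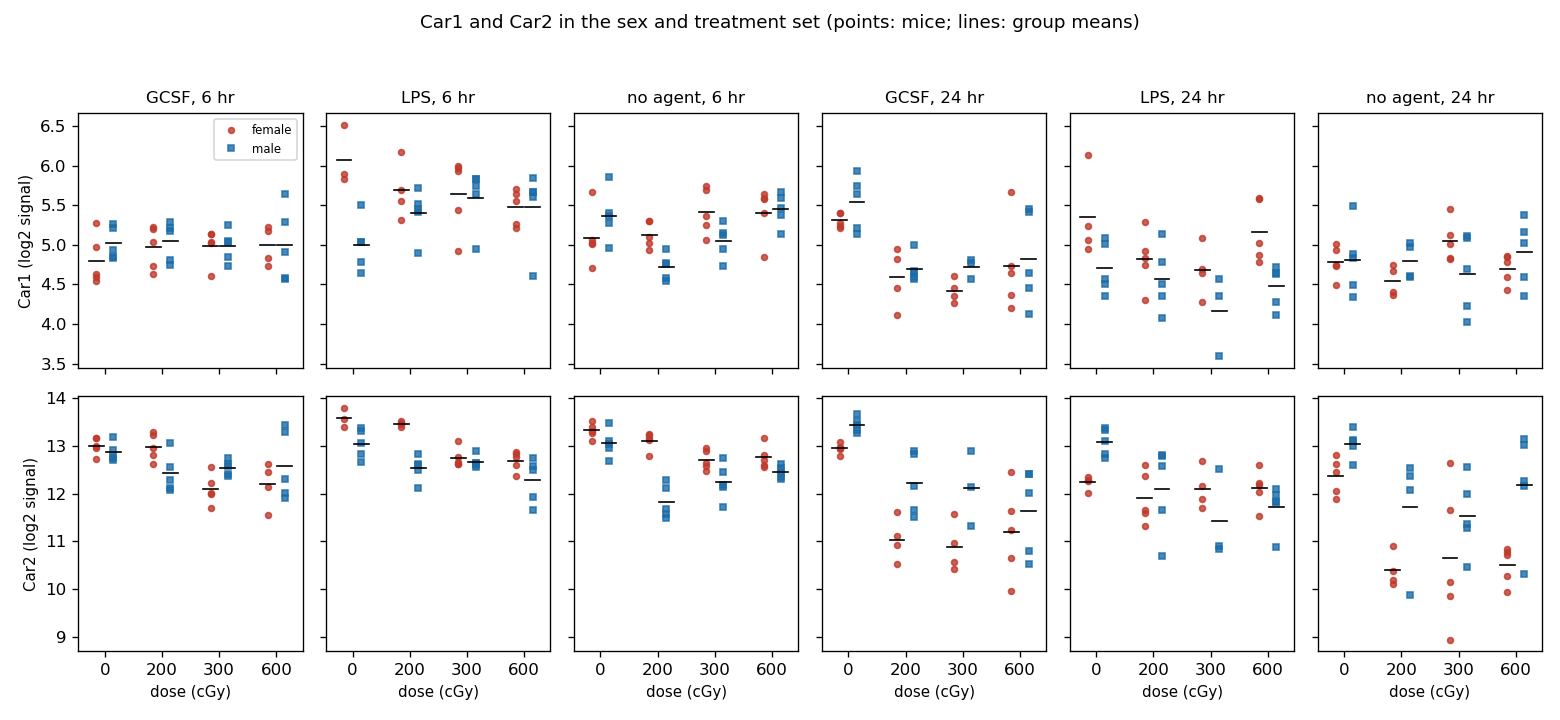
Log2 signal of Car1 and Car2 in each mouse of the sex and treatment set, by dose in cGy, with GCSF, LPS and no agent in separate panels at 6 and 24 hr; circles are females and squares males. At 24 hr Car2 under GCSF is below its 0 cGy mice of the same sex in every mouse at 600 cGy. The share of all genes for which this holds was not counted.

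In the small treatment set, read at 6 hr only, few differences were called. LPS mice at 0 cGy had Bpgm from 13.70 through a median of 13.81 to 13.92, against 13.42 through 13.67 to 13.72 without an agent (n = 6 each), and it rose by 0.20 ± 0.06 (adjusted p = 0.0146). Blvrb rose there by 0.44 ± 0.16 (adjusted p = 0.0375), where 10.2% of genes rose. At 600 cGy Car1 was higher under LPS by 0.75 ± 0.25 (adjusted p = 0.0131), where 23.3% of genes rose. Under LPS, Car1 fell at 150 cGy by 0.92 (adjusted p = 0.0273, 2.40% of genes) and Blvrb at 600 cGy by 0.53 (adjusted p = 0.0185, 9.55%). The LPS calls at 0 cGy were not both kept in every alternative: Bpgm lost its call with the mean of its probe sets (adjusted p = 0.117), and leaving out 1 mouse ended that of Blvrb in 7 of 12 fits (adjusted p up to 0.151). The Car1 call at 150 cGy was lost in 5 of 11 such fits (up to 0.122). No member was called for 150 or 600 cGy without an agent (3.83% and 7.38% of genes) or under GCSF (1.77% and 25.0%), for GCSF at 0, 150 or 600 cGy (0.549%, 0.0726% and 0.258%), or for LPS at 150 cGy (23.6%).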

How the data were processed

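Blood RNA of 534 mice was measured on 536 Affymetrix 430A 2.0 arrays, 2 of them repeat scans that were averaged with the first. The log2 signals were made by the authors with RMA in affy, per the submitters' processing notes, and versions are not given in the sources used here. The deposited table held 22690 probe sets with values from 2.17 to 14.85 and array medians from 5.61 to 5.93, and 0 of its columns belonged to no sample. Control probe sets (64), those without a symbol (1555) and those with several (691) were left out. The other 20380 covered 12393 genes, each read from whichever probe set had the highest average. RefSeq's table (GRCm38.p6) updated names, and 29 probe sets had no match there.

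Each of the 4 sets was fitted alone in limma 3.58.1 (R 4.3.3), with a mean per group, dose slopes and differences as contrasts, eBayes and Benjamini-Hochberg adjustment over all genes at 0.05. The fit was checked on simulated data. Figures used matplotlib 3.10.9. Text names the 4 members, Alas2 and Alb, the 3 genes whose 48 group means correlate best with each member, and up to 4 genes of a list with the smallest p at the time described. The members and lists were chosen with earlier results of these data known. Mouse numbers are shared between groups, but deviations of mice with the same number correlated at 0.02, 0.04, 0.06 and -0.13 on average in the 4 sets, so they were not taken as pairs. The run codes are read from the sample titles, which do not say what they stand for. Alternatives covered the normalisation, probe choice, runs, mouse numbers, single mice, arrays with Alb of 10 or more, and which groups share a fit.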

Additional observations from a re-analysis of the deposited data

Results flagged for a closer look

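Each of the 4 members was examined in each group of 4 to 10 mice, for a highest or lowest mouse beyond Dixon's 95% limit. Of these 412 combinations of member and group, 38 (9.2%) had one. Chance gives about 1 in 20 for independent groups. The members share their mice, so the combinations are not independent, and the 9.2% was not tested against that share. All values are log2 signals, and the causes were not tested.

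In the dose-time set, Bpgm mouse 2 at 1050 cGy and 24 hr was low at 6.72, mouse 7 at 200 cGy and 72 hr low at 12.08, and mouse 15 at 600 cGy and 168 hr low at 9.87. High Bpgm mice were mouse 4 at 300 cGy and 48 hr (13.04), mouse 6 at 300 cGy and 72 hr (12.64), mouse 2 at 450 cGy and 120 hr (13.74), mouse 15 at 800 cGy and 120 hr (7.46), and at 168 hr mouse 14 at 1050 cGy (12.12), mouse 1 at 100 cGy (14.04) and mouse 2 at 0 cGy (13.94). Some of the same mice stood out in Car2: mouse 4 at 300 cGy and 48 hr was high at 12.04 and mouse 14 at 1050 cGy and 168 hr at 10.51. Car2 was also high in mouse 3 at 300 cGy and 24 hr (11.11), and low in mouse 5 at 600 cGy and 48 hr (7.39) and mouse 4 at 450 cGy and 168 hr (13.50). Blvrb was high in mouse 3 at 300 cGy and 24 hr (10.85), mouse 5 at 200 cGy and 48 hr (10.94), mouse 4 at 300 cGy and 48 hr (11.40), mouse 6 at 300 cGy and 72 hr (10.93), mouse 1 at 100 cGy and 72 hr (12.20) and mouse 1 at 0 cGy and 168 hr (11.47). Car1 was high in mouse 5 at 200 cGy and 48 hr (4.99) and low in mouse 3 at 0 cGy and 168 hr (4.48).

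In the sex and treatment set, Bpgm was low in male 1 at 200 cGy and 24 hr without an agent (12.04) and in female 3 at 600 cGy and 6 hr under GCSF (12.80), and high in male 3 at 300 cGy and 6 hr under GCSF (13.75). Car1 was high in male 3 at 200 cGy and 24 hr under GCSF (5.00), and low at 6 hr in female 2 at 300 cGy under GCSF (4.61), male 5 at 300 cGy under LPS (4.95) and male 1 at 600 cGy under LPS (4.61). Car2 was low in female 4 at 200 cGy and 6 hr without an agent (12.80) and in male 2 at 600 cGy and 24 hr under LPS (10.89), and high in male 3 at 300 cGy and 6 hr under LPS (12.90). Blvrb was high in male 4 at 300 cGy and 6 hr under GCSF (11.16) and low in male 4 at 600 cGy and 24 hr without an agent (10.29). In the small treatment set, Car2 mouse 4 at 0 cGy under GCSF was low at 10.74. Blvrb there was high in mouse 1 at 600 cGy without an agent (12.32) and low in mouse 10 at 0 cGy without an agent (11.54).

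The dose slope differed between times in every member by the moderated F test, with F = 80.29 for Bpgm, 32.25 for Car1, 79.49 for Car2 and 44.48 for Blvrb, as it did for 92.3% of genes.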

How the results depend on the processing

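Of 2770 refits of dose differences in the dose-time set, 2611 kept direction and call, 106 lost a call, 53 gained one and 0 turned. Of 414 refits of dose trends, 396 kept both. The turned ones were the 8 slopes at 120 and 168 hr without arrays whose Alb value is 10 or more, where 0 mice above 300 cGy remain: at 120 hr Bpgm 0.139, Car1 0.274, Car2 0.397 and Blvrb 0.498, and at 168 hr Bpgm 0.015, Car1 0.395, Car2 0.251 and Blvrb 0.391. Other causes were not tested. The sex and treatment set kept 759 of 792 and the small sets 668 of 696. How far each probe set's signal lies above background is not given.

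With mouse number as a replicate block, calls downward at 120 hr numbered 6 (10 without), members with a 24 hr trend 2 (1), 0 cGy mice between times 2 (1), the LPS trend at 6 hr 1 (2), LPS against none at 0 cGy in the small treatment set 1 (2) and 600 against 0 cGy without an agent there 1 (0). It also ended the call of Bpgm in the small 7-day set (0.492, adjusted p = 0.061).

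With quantile normalisation, calls downward at 24 hr numbered 11 (7 as reported), upward at 120 hr 6 (11) and at 6 hr 1 (2), the LPS trend at 6 hr 1 (2), GCSF against none at 24 hr 0 (1) and the LPS slope minus none at 24 hr 1 (0). With only the groups of that time fitted, calls downward at 24 hr numbered 4, the GCSF and no-agent trends at 6 hr 2 (1) and 1 (0), the LPS trend at 24 hr 0 (1), GCSF against none 0 (1) and females against males at 6 hr 1 (0). With centred arrays the GCSF trend at 6 hr and the LPS trend at 24 hr had 0 members each (1 each). The run block and the Alb filter each gave 2 members for 0 cGy mice between times, and the mean of the probe sets gave 1 for LPS in the small treatment set. The 24 hr trend had 4 members by an F test over doses, 3 without mouse 2 of the 1050 cGy group, 2 without Alb arrays and 0 without that mouse and the 800 cGy mice.

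Leaving out each mouse number in turn gave 7 to 11 upward calls at 120 hr, 0 to 4 at 6 hr, 1 to 3 members for the 24 hr trend, 0 to 1 for 0 cGy mice between times, GCSF against none, the GCSF trend at 6 hr and the GCSF slope minus none, and 0 to 2 for both LPS trends. In the small treatment set it gave 0 to 2 for 150 cGy under GCSF and 600 cGy without an agent, 0 to 1 for 150 cGy under LPS and 600 cGy under either agent, 1 to 3 for LPS at 0 cGy and 1 to 2 for LPS at 600 cGy.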
